A study of Mus musculus with 8 samples.

Results

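The kappa light chain V genes of the mouse comprised the 160 symbols beginning with Igkv among the 32285 genes of the feature lists, and every one of them was kept as a member. The annotation used here (GENCODE release M21, on the same GRCm38 build that the submitters' processing notes name) described 100 of them as V genes and 60 as V pseudogenes. They lay on chromosome 6 between bases 67555497 and 70704177, upstream of the J segments, the first of which began at base 70722562. UMIs (unique molecular identifiers, which count captured transcripts) were found for 142 members, and the 18 members without any were all pseudogenes.

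Each developing B cell joins 1 V gene of the kappa locus to a J segment, and the V gene's coding exons then head the same messenger RNA that ends in the kappa constant gene, Igkc. V genes that lie in the same orientation as the J segments are joined by deletion of the intervening DNA, and those in the opposite orientation by inversion. Naive B cells carry the repertoire left after development and tolerance, whereas germinal centre B cells (GCBs) and plasma cells (PCs) descend from clones that responded to antigen, so that a few clones can hold many of their cells.

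The libraries held spleen cells of mice aged 2 months that were either Eif3e cg1cre conditional knockout (cKO) or control animals. In cKO mice Cre expressed from the immunoglobulin γ1 locus (Cγ1Cre) deleted floxed Eif3e alleles and switched on a Rosa26 YFP reporter. The study describes the controls as carrying the Cre and the reporter without the floxed alleles. Cells of several mice were pooled for each library, and either all live splenocytes (total) or YFP+ cells were sorted, giving 4 groups with 2 libraries each, 1 from each batch. Cγ1Cre acts mainly in activated B cells, and the YFP+ sort enriched cells in which Cre had acted, although its libraries also held 30 to 375 T cell-like cells. The p-values below measure the spread between 2 pooled libraries of a group.

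Of 83967 barcodes, 83704 passed the filters, with 71894780 to 105224903 UMIs per library and median depths from 5250 to 6810.5 UMIs per cell. Pairs of libraries shared 51 to 102 cell barcodes. Cells were clustered without any immunoglobulin gene, and clusters were named from marker genes, giving naive B-like, pre-GCB-like, GCB-like and PC-like classes among 67012 B-lineage cells. Levels are given as CPM, the UMIs of a gene per 1000000 UMIs of all genes in the same class and library. Eif3e stood in YFP+ pre-GCB-like cells at 274 and 287 CPM in control and 160 and 165 CPM in cKO mice (log2 fold change −0.71 ± 0.19 (SE), adjusted p = 0.0427, edgeR's quasi-likelihood test). In YFP+ naive B-like cells Eif3e stood at 209 and 262 in control against 291 and 366 in cKO libraries, so that the cKO label was not matched by a lower level there. The groups overlapped in GCB-like (265 and 297 against 270 and 304) and PC-like cells (108 and 136 against 110 and 117). Whether the 3′ tags lay outside the deleted exons, and so could not report the deletion, was not tested.

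A B cell was assigned a leading Igkv gene when that gene held at least 2 UMIs and at least 60% of the cell's Igkv UMIs without a tie. This called 9158 B-lineage cells, from 756 to 1943 per library, and 103 members led at least 1 cell. Pseudogenes led 1.11% of the called cells and held 1.38% of all Igkv UMIs. Because the libraries were read from the 3′ end of the transcript, V sequence was rarely captured: 5.81% to 12.3% of naive B-like cells were called, against 76.6% to 91.9% of PC-like cells. Shares of called cells are therefore shares of the cells in which a V gene could be read.

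Among naive B-like cells the genes called most often were Igkv1-117 and its close relative Igkv1-110. Igkv1-117 led in 7 of 8 libraries and Igkv1-110 in the other, control total batch 1. The last 300 bases of their coding sequences (bases 60 to 359, 5′ to 3′, from the GENCODE M21 transcripts on GRCm38) are given because these genes led the naive calls and because a read must cover a differing base to tell them apart. Capitals mark all 10 positions at which the sequences differ, an identity of 97.2%. Igkv1-117 spans chr6:68121046-68121827 and Igkv1-110 spans chr6:68270485-68271267, both on the plus strand, as the J segments are.
Igkv1-117: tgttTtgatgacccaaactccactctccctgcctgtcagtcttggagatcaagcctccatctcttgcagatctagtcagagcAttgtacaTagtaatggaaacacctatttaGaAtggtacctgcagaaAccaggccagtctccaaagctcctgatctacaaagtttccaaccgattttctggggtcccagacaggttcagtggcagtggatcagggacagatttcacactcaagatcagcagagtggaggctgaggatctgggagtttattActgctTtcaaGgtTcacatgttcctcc
Igkv1-110: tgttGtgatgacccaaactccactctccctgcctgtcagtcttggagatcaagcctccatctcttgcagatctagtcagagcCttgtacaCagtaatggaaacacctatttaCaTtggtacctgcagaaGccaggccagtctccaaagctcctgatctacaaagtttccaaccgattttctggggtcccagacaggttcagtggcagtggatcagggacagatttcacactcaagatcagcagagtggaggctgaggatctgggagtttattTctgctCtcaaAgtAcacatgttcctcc

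Igkv1-135 (chr6:67609713-67610508, plus strand), which led one of the GCB-like libraries described further on, is shown with its nearest relative Igkv1-133. Bases 63 to 362 are printed, and capitals mark 11 of the 12 differing positions, an identity of 96.7%, whereas Igkv1-135 and Igkv1-117 were 77.7% identical.
Igkv1-135: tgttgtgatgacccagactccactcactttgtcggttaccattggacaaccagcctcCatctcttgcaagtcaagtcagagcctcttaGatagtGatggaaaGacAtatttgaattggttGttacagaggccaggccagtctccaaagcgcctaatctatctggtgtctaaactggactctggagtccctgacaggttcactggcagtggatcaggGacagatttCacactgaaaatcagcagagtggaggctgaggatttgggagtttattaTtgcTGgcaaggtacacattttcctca
Igkv1-133: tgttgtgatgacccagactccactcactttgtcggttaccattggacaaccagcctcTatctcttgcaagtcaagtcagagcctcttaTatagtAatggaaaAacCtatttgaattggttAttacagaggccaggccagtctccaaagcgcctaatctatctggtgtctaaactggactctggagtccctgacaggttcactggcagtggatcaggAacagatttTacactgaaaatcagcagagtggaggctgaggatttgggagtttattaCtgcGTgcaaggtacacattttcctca

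Of the 100 V genes, 46 had a relative at or above 95% identity and none at or above 99%. Reads could leak between relatives, and this was measured in PC-like cells, where V UMIs are plentiful. In the 81 PC-like cells led by Igkv1-117, Igkv1-110 held 0.196% of the Igkv UMIs, compared with 0.273% in PC-like cells led by other genes. In the 86 cells led by Igkv1-110, Igkv1-117 held 0.983%, compared with 0.344% in the others. These cells were chosen by the rule that 1 gene holds most of the V UMIs, so cells with heavy crossover could not enter.

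Igkv1-117 led 18.5% to 33.3% of the called naive B-like cells of a library, with a mean of 24.6% ± 5.71 (SD, n = 8 libraries). Igkv1-110 followed with 18.2%. Next came another pair of relatives, Igkv17-127 with 4.70% and Igkv17-121 with 3.82%, which were 97.5% identical. Igkv2-109, Igkv6-20, Igkv1-135, Igkv19-93, Igkv6-15 and Igkv10-96 completed the 10 highest at 2.08% to 2.63%, and their ranges over libraries overlapped, so that their order is not resolved. These 10 genes together led 65.3% of the 3049 called naive cells as the mean over libraries, and 88 members led at least 1. By V subgroup, the 13 members of Igkv1 led 47.7% ± 7.72 (SD, n = 8) of naive calls, the 9 of Igkv6 led 9.68% and the 3 of Igkv17 led 8.53%.

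The size of this lead depended on how much V sequence was required. Igkv1-117 and Igkv1-110 together led 42.7% ± 7.14 (SD, n = 8) of naive cells under the rule of at least 2 UMIs, 18.0% ± 1.19 of 12259 cells when 1 UMI sufficed, and 89.8% ± 6.29 of 377 cells when 5 were required. PC-like cells gave 11.1% for 2 UMIs, 11.1% for 1 and 12.03% for 5. The naive share is therefore not a repertoire share. In T cell-like cells, which do not transcribe rearranged kappa genes, 113 of 11704 cells were called, and the same genes led 46 of the 113 (40.7%), close to the naive share. Doublet-like cells were kept among the T cell-like cells. The parts of doublets and of free RNA in the T cell-like and naive calls were not tested. Capture also differed between V genes where they were abundant. In 1901 PC-like cells led by the 55 genes with at least 10 such cells, the leading gene's UMIs per 1000 Igkc UMIs ranged from 1.61 to 12.7 with a median of 6.34, and they were 10.5 for Igkv1-117, 10.7 for Igkv1-110, 10.9 for Igkv17-127 and 10.2 for Igkv17-121. Across these 55 genes the capture ratio had a Spearman correlation of 0.553 with the naive share and of 0.306 with the plasma share, a description over genes that share libraries and depth.

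**Figure D1:**
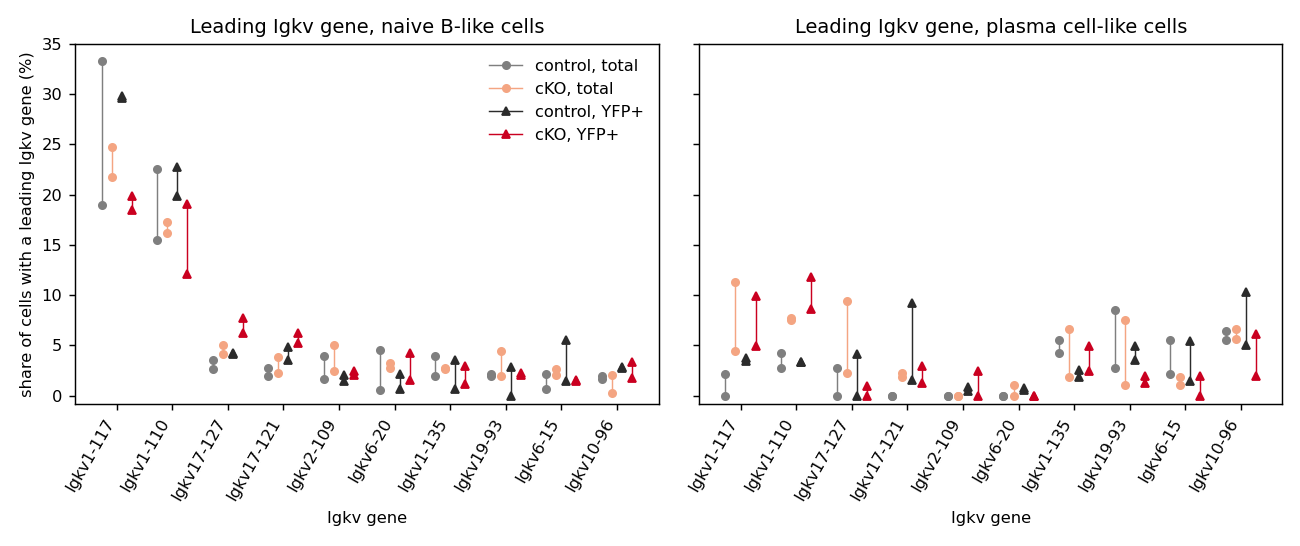
Share of called cells (%, y axis) led by each of the 10 most used naive Igkv genes (x axis) in naive B-like cells (left) and PC-like cells (right), each point 1 library, with a line joining the 2 libraries of a group. Igkv1-117 and Igkv1-110 stand far above the other genes in naive cells in all 4 groups, and lie under 12% in every PC-like library.

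Naive usage was then compared between genotypes. In total splenocytes Igkv1-117 led 19.0% and 33.3% of naive calls in control and 24.7% and 21.8% in cKO libraries, and the groups overlapped. In the YFP+ sort it led 29.8% and 29.7% in control but 19.9% and 18.5% in cKO libraries, without overlap. Igkv1-110 showed 19.9% and 22.8% against 19.1% and 12.1%, also without overlap, whereas Igkv17-127 stood at 4.26% and 4.14% against 7.69% and 6.26%. Counts of cells led by each Igkv and Ighv gene were tested together with edgeR's quasi-likelihood test. None of the 30 Igkv genes tested in YFP+ naive cells passed an adjusted p of 0.05 (0.0% of the 103 genes tested were called), 4 had an unadjusted p below 0.05, and DESeq2 called none. The lowest p was that of Igkv1-117, with a log2 fold change of −0.64 ± 0.17 (SE) and an adjusted p of 0.0709. At a finer clustering edgeR gave −0.67 with an adjusted p of 0.0434, and over the other 13 alternatives tried the adjusted p ran from 0.0796 to 0.992.

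In total splenocytes edgeR called none of 33 Igkv genes, and none had an unadjusted p below 0.05. For the sort, none of 25 Igkv genes was called for YFP+ against total in control mice (3 at an unadjusted p below 0.05) and none of 40 in cKO mice (2 at that level). The difference of the genotype effect between the sorts likewise gave none of 47 Igkv genes, with 3 at an unadjusted p below 0.05. All these counts stand against 0.0% called among all V genes tested in each comparison, and DESeq2 called none in any of them. The fits over both sorts did not pair the total and YFP+ libraries of a genotype and batch. With the batch as a block they called none either.

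The naive class was not made of the same clusters in the 2 genotypes. One cluster held 98.3% of control naive cells in total splenocytes and 96.6% in the YFP+ sort, but 7.45% and 1.34% of the cKO ones, which lay in 3 other clusters. Its score on the naive marker list was 1.28. The other 3 held 45.7%, 37.3% and 15.7% of YFP+ cKO naive cells and scored 0.55, 0.529 and 1.44. The naive markers were thus weaker in the clusters that held most of these cKO cells. Depth differed too, with medians of 3990 and 2810 UMIs in control and 5304 and 6041 in cKO YFP+ naive cells. Their part in the naive comparisons was not tested beyond the thinning given next.

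Evenness was expressed as an effective number, the count of equally used genes that would give the same chance of drawing the same gene from 2 cells. In YFP+ naive cells it was 7.45 and 6.88 in control and 11.1 and 15.3 in cKO libraries, a difference of 6.04. With 2 libraries in each group an exact permutation test cannot go below p = 0.333, the value it gave here. When cells were thinned to 3000 UMIs the numbers were 6.15 and 7.29 against 7.07 and 8.95, and the groups overlapped. Thinning left out cells with fewer UMIs, 244 of 2037 and 1530 of 2497 in control and 293 of 5939 and 266 of 7476 in cKO libraries. Leaving out Igkv1-117 and Igkv1-110 gave 29.2 and 27.0 against 24.7 and 29.0, again overlapping. In total splenocytes the groups overlapped at 10.4 and 7.10 against 10.1 and 11.4. The Morisita index of shared usage, which is about 1 for samples of the same repertoire, was 1.01 and 0.965 between the YFP+ naive libraries of a group (control and cKO) and 0.885, 0.903, 0.952 and 0.966 between genotypes in that sort. Over both sorts the medians were 0.980 between the libraries of a group and 0.959 between genotypes within a sort.

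**Figure D2:**
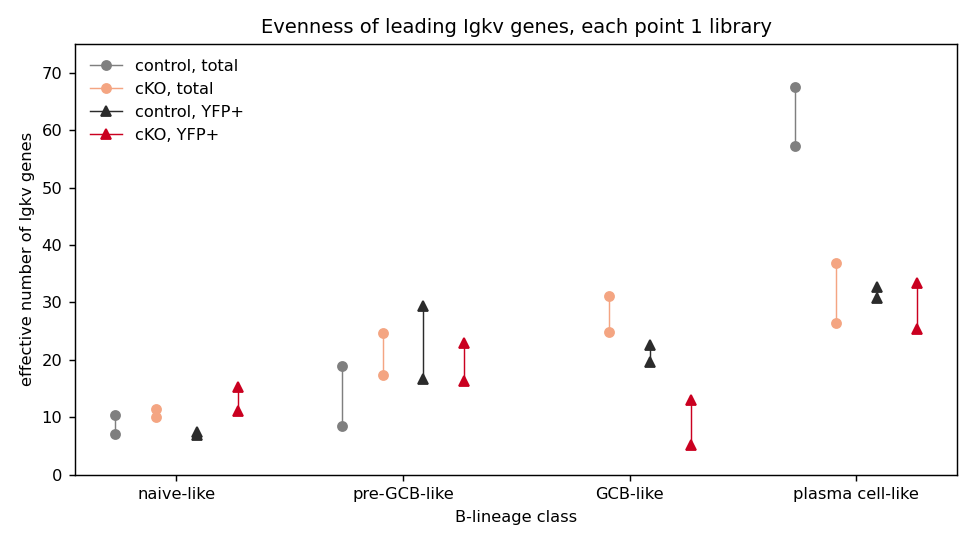
Effective number of leading Igkv genes (y axis) in 4 B-lineage classes (x axis), each point a library with at least 20 called cells, with a line joining the 2 libraries of a group. YFP+ cKO libraries lie above control in naive B-like cells (11.1 and 15.3 against 7.45 and 6.88) and below it in GCB-like cells (5.26 and 13.1 against 22.6 and 19.7), and the control total libraries stand highest in PC-like cells.

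The calls of PC-like cells were then set beside those of naive cells of the same library, with the limit that the naive shares depend on the UMI minimum and resemble those of T cell-like cells. Igkv1-117 and Igkv1-110 together led 11.1% ± 6.25 (SD, n = 8) of PC-like cells, below the naive share in 8 of 8 libraries, and in 8 of 8 after thinning to equal total UMIs (13.3% against 52.6%). Thinning did not equalise V UMIs, since 2.96% to 6.56% of thinned naive cells were called against 55.2% to 80.8% of PC-like cells. With 1 UMI sufficing, it was 11.1% against 18.0%, below the naive share in 7 of 8 libraries. Under the rule of at least 2 UMIs the PC-like share differed by genotype. In total splenocytes it was 6.38% and 2.78% in control against 18.9% and 12.1% in cKO libraries. In the YFP+ sort it was 7.07% and 6.82% against 16.7% and 18.5%. The groups did not overlap in either sort, and this difference in the joint share was not tested. The highest mean shares in PC-like cells were those of Igkv1-110 (6.17%), Igkv10-96 (5.96%), Igkv1-117 (4.98%), Igkv19-93 (3.95%) and Igkv1-135 (3.76%), and their ranges over libraries overlapped. The effective number was 25.4 to 67.6 in PC-like and 6.88 to 15.3 in naive cells. Leaving out Igkv1-117 and Igkv1-110 gave 24.7 to 38.3 in naive cells, which overlaps the PC-like range with these genes kept. By subgroup, Igkv1 led 16.5% and the 33 members of Igkv4 led 14.1% of PC-like cells.

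Igkv1-117 and Igkv1-110 both lie far from the J segments and in their orientation, so comparisons by position and by orientation include the difference in these genes. The locus was divided into 3 stretches of equal length, holding 26 V genes in the stretch farthest from the J segments, 32 in the middle and 42 nearest to them. The far stretch led 63.8% ± 4.03 (SD, n = 8) of naive and 31.7% ± 4.75 of PC-like cells, lower in 8 of 8 libraries. With 1 UMI sufficing the shares were 43.0% and 32.3%, still lower in 8 of 8. Among cells led by neither Igkv1-117 nor Igkv1-110, the far stretch led 36.5% ± 3.49 (SD, n = 8) of naive and 23.1% ± 4.02 of PC-like cells, or 30.5% and 23.9% with 1 UMI sufficing, lower in 8 of 8 under both rules. Genes in inverted orientation, 62 of the 100 V genes, led 27.5% ± 3.11 of naive and 57.1% ± 4.996 of PC-like cells, or 45.2% and 56.2% when 1 UMI sufficed, higher in 8 of 8 under both rules. The series' design states that spleens were pooled in each batch before both sorts, and the total and YFP+ libraries of a genotype and batch were therefore treated as 1 pool. A sign-flip test over 4 pools is exact but cannot go below p = 0.125. It gave this value for the far stretch and for inverted orientation under the rule of at least 2 UMIs.

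**Figure D3:**
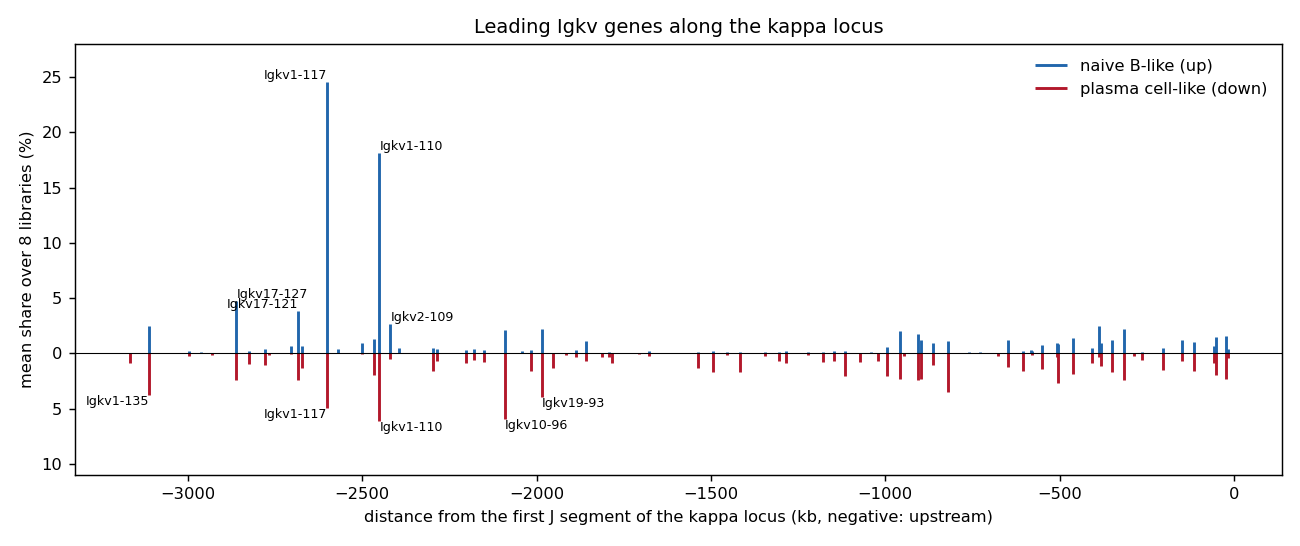
Mean share over 8 libraries (%, y axis) of cells led by each Igkv gene, placed by its distance from the first J segment (kb, x axis), upward for naive B-like and downward for PC-like cells. Igkv1-117 and Igkv1-110, 2601 and 2451 kb from the first J segment, together led 42.7% of naive calls under the rule plotted, at least 2 UMIs, and 18.0% when 1 UMI sufficed, against 11.1% of PC-like calls under both rules.

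Among YFP+ PC-like cells, control libraries were led by Igkv17-121 (64 of 693 cells, 9.24%) in batch 1 and by Igkv10-96 (92 of 895 cells, 10.3%) in batch 2. The cKO libraries held fewer PC-like cells, 1.14% and 0.870% of kept cells against 9.76% and 9.01%, and were led by Igkv1-110 (12 of 102 cells, 11.8%) and Igkv1-117 (8 of 81 cells, 9.88%). The heavy chain call was joined to show how often a pair of V genes recurred. In control batch 1, 46 of 552 cells with both calls (8.33%) carried its leading gene Igkv17-121 with Ighv1-5. In the other libraries the most frequent pair was Igkv17-127 with Ighv9-4 in control batch 2 (20 of 628 cells), Igkv10-94 with Ighv1-50 in cKO batch 1 (7 of 70 cells), neither of them with the leading gene, and Igkv1-117 with Ighv9-3 in cKO batch 2 (3 of 61 cells). Cells that share both V genes are not shown to be 1 clone, since junctions were not read.

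None of 52 Igkv genes was called in the usage test of YFP+ PC-like cells, where 0.0% of 101 V genes tested were called. With edgeR 1 had an unadjusted p below 0.05, and DESeq2 called none. The effective numbers overlapped at 32.6 and 30.8 in control against 25.4 and 33.4 in cKO libraries. In total splenocytes they did not, at 67.6 and 57.3 against 26.5 and 36.9, but these rest on 47, 36, 53 and 91 called cells.

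GCB-like cells of the YFP+ sort were led by Igkv1-117 in both control libraries (29 of 225 and 67 of 475 called cells, 12.9% and 14.1%). In cKO batch 2 the same gene led 15 of 59 cells, 25.4% (95% exact binomial interval 14.98 to 38.4%, counting error only). In cKO batch 1 the leader was Igkv1-135, with 34 of 88 called cells, 38.6% (28.4 to 49.6%), against 6.67% and 2.74% in control and 3.39% in the other cKO library. Igkv6-17 led 12 of 88 cells there, 13.6% (7.25 to 22.6%), against 3.11% and 3.16% in control and no cell of the other cKO library, where 0 of 59 cells allows up to 6.06%. Igkv1-135 was not raised to this share in the other classes of that library, leading 12 of 403 naive and 11 of 206 pre-GCB-like cells.

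In the usage test Igkv1-135 had a log2 fold change of 2.20 ± 0.90 (SE) with an adjusted p of 0.264, and the direction turned without cKO batch 1 (−0.42). Without cKO batch 2 its log2 fold change was 3.11 and 1 Igkv gene was called, but the cKO arm then held only the library with the high share, which is assumed to vary like the controls. None of 22 Igkv genes was called (0.0% of 28 V genes tested), 1 had an unadjusted p below 0.05, and DESeq2 called none. Effective numbers were 22.6 and 19.7 in control and 5.26 and 13.1 in cKO libraries, a difference of −11.99 without overlap, for which the exact permutation test gave p = 0.333, the smallest possible. Leaving out Igkv1-135 gave 21.7 and 18.9 against 8.57 and 12.3. Leaving out Igkv1-117 and Igkv1-110 instead gave 29.7 and 25.6 against 3.59 and 35.7, and the groups overlapped, as did the number of genes expected in 50 called cells (25.7 and 24.4 against 14.4 and 25.3). The libraries differed in how cleanly cells could be called: of GCB-like cells with at least 2 Igkv UMIs, 89.6% and 91.7% held more than 1 Igkv gene in control against 54.1% and 69.7% in cKO libraries, and 13.9% and 14.1% of cells were called against 25.2% and 28.4%. The part of this in the evenness was not tested. Over all 8 libraries, of which the control total ones had only 15 called cells each, Igkv1-117 and Igkv1-110 together led 20.7% ± 5.41 (SD, n = 8) of GCB-like calls, below the naive share in 8 of 8 libraries. After thinning only 182 GCB-like cells were called over all libraries, 1.15% to 6.56% of the cells of a library. The mean was then 56.9% ± 28.6 against 52.6% in naive cells, lower in 5 of 8 libraries. Some of these shares rest on very few cells, so the thinned comparison is not resolved.

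**Figure D4:**
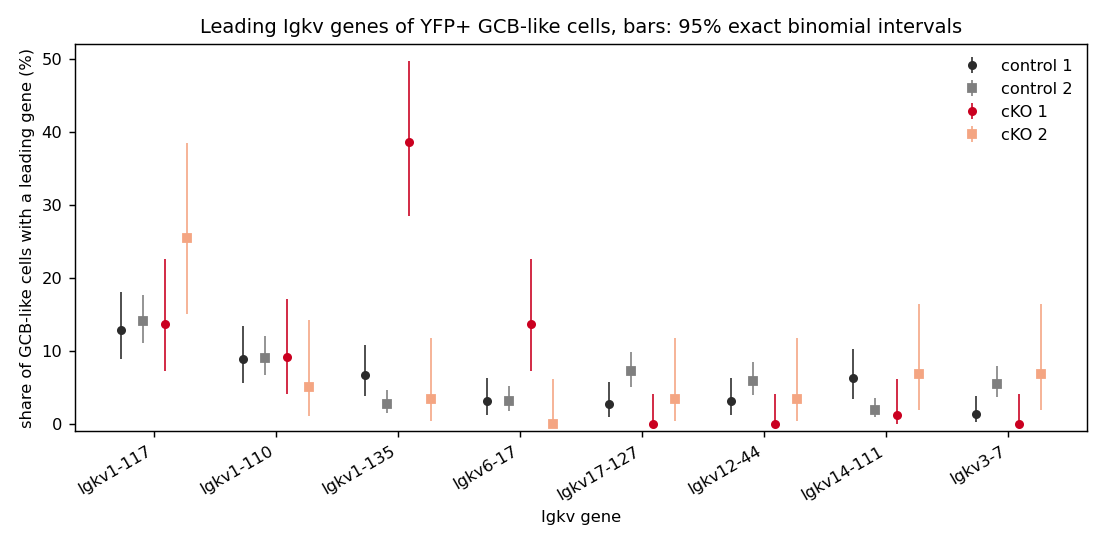
Share of called YFP+ GCB-like cells (%, y axis) led by each of 8 Igkv genes (x axis), with 95% exact binomial intervals, in 4 libraries. The intervals give counting error only, treat cells as independent and do not measure the spread between libraries. Igkv1-135 stands at 38.6% in cKO batch 1, and its interval lies above those of the other 3 libraries, and Igkv6-17 stands at 13.6% in the same library.

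YFP+ pre-GCB-like cells, which resemble recently activated B cells, had few calls in control mice (33 and 25 cells) and more in cKO mice (206 and 353). Igkv1-117 led 2 of 33 and 5 of 25 cells in control and 33 of 206 and 46 of 353 in cKO libraries, and the shares overlapped. None of 18 Igkv genes was called in the usage test (0.0% of 31 V genes tested, 1 at an unadjusted p below 0.05, none by DESeq2). The effective numbers overlapped at 29.3 and 16.7 against 16.3 and 23.0.

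Usage says nothing of level, so the UMIs of each member were also summed per class and library and tested among all genes. In YFP+ naive cells the 160 members together held 180 and 211 CPM in control and 92.4 and 116 in cKO libraries. In pre-GCB-like cells they held 141 and 150 against 51.9 and 77.4, and in GCB-like cells 147 and 169 against 88.0 and 115. None of these groups overlapped, and the exact permutation test gave its smallest p of 0.333 for each. In PC-like cells the groups overlapped at 1630 and 1724 against 1097 and 1969, as did naive, pre-GCB-like, GCB-like and PC-like cells in total splenocytes. Per 1000 Igkc UMIs, the YFP+ values were also lower in cKO without overlap in naive (21.2 and 18.1 against 12.8 and 15.3), pre-GCB-like (17.1 and 19.1 against 8.04 and 11.2) and GCB-like cells (17.7 and 16.97 against 11.9 and 15.4). In PC-like cells this ratio overlapped in the YFP+ sort (6.70 and 7.16 against 5.49 and 8.44) and was higher in cKO without overlap in total splenocytes (5.63 and 7.15 against 7.32 and 10.01), and in the other 3 classes of total splenocytes it overlapped. The share of UMIs from Igkc was also lower in cKO without overlap in these 4 YFP+ classes, for example 0.848% and 1.16% against 0.721% and 0.756% in naive and 24.3% and 24.1% against 19.98% and 23.3% in PC-like cells, with the same smallest p of 0.333 from the exact permutation test. Igkc itself was not called in any class, with log2 fold changes of −0.30 ± 0.34 (SE) in naive, −0.19 ± 0.20 in pre-GCB-like, −0.27 ± 0.28 in GCB-like and −0.12 ± 0.41 in PC-like cells of the YFP+ sort.

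T cell-like cells showed the same order. They held 72.8 and 96.3 CPM of Igkv in the control YFP+ libraries (348 and 62 cells) and 16.8 and 47.7 in the cKO ones (375 and 30 cells), whereas in total splenocytes the values were 14.5 and 42.3 against 13.2 and 40.4. The YFP+ values rest on 150 and 25 Igkv UMIs in control and 36 and 9 in cKO libraries. The 9 plasma cell markers together stood at 362 and 381 CPM in these YFP+ T cell-like cells of control against 246 and 281 in cKO libraries, with Sdc1 at 1 and 0 against 0 and 0 UMIs. Jchain, which joins secreted antibody and is 1 of the 9, made this gap, at 169.8 and 150.2 against 28.0004 and 15.9 CPM. The other 8 summed to 192 and 231 against 218 and 265 CPM, which overlap. Xbp1, a transcription factor of secretory cells, stood at 29.1 and 23.1 against 34.5 and 63.6. These marker values rest on few UMIs and were not tested. The YFP+ T cell-like cells of batch 2 held 259580 UMIs of all genes in control and 188755 in cKO libraries. Of the 9 markers, 1 and 2 had no UMI in control and 2 and 2 in cKO libraries. In naive cells the 9 markers, all detected, summed to 884 and 1022 against 733 and 731 CPM and Jchain to 197 and 143 against 24.3 and 14.9, while the other 8 overlapped at 688 and 878 against 709 and 716, as did Xbp1 at 41.0 and 49.2 against 38.3 and 65.3. In pre-GCB-like cells the sums were 1192 and 1228 against 945 and 850 CPM, and 958 and 1066 against 870 and 804 without Jchain. In GCB-like cells the order was the opposite, with sums of 1879 and 2134 in control against 2450 and 2574 CPM in cKO libraries, and 1146 and 1362 against 1621 and 1602 without Jchain. The part of free RNA in the summed Igkv levels was not tested.

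**Figure D5:**
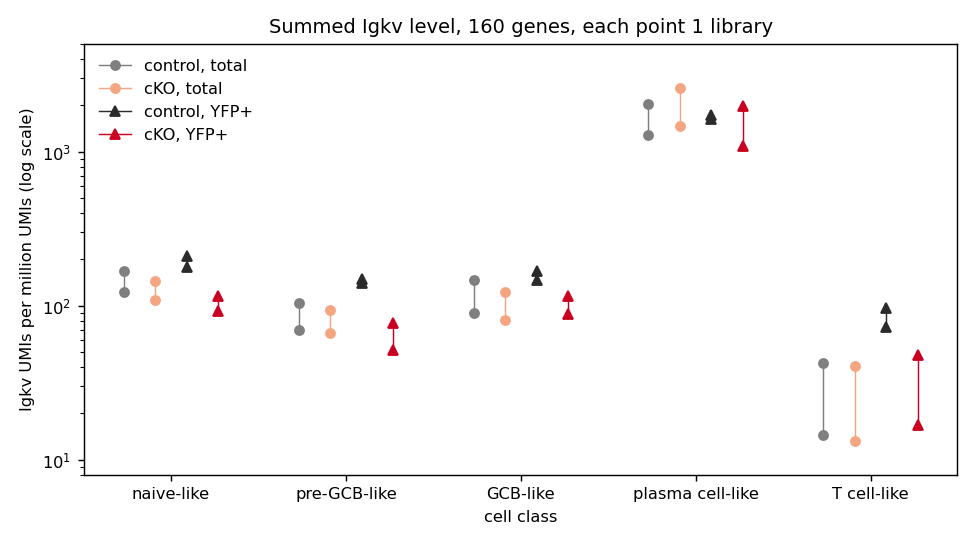
Summed Igkv level in CPM (y axis, log scale) of 160 members in 4 B-lineage classes and in T cell-like cells (x axis), each point 1 library, with a line joining the 2 libraries of a group. Control YFP+ libraries lie above cKO ones in naive, pre-GCB-like, GCB-like and also T cell-like cells, and overlap them in PC-like cells.

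For single members, 59 passed the filter on low counts in YFP+ naive cells and 1 was called, Igkv4-59 (0.693% of 12845 genes were called). Its UMIs were 28 and 28 in control and 14 and 22 in cKO libraries, 3.30 and 3.74 against 0.404 and 0.445 CPM (log2 fold change −2.87 ± 0.43 (SE), adjusted p = 0.0415, edgeR). It led 0 and 1 naive cells in control and 0 and 2 in cKO libraries, and 7 and 1 of its UMIs lay in T cell-like cells of the control libraries against 0 and 0. Of all genes 0.171% were called lower. Igkv4-59 passed the filter on low counts only through the control libraries, where it was high, so its call only describes that contrast. With the batch as a block 14 members were called, all lower in cKO, against 18.4% of all genes called and 8.52% called lower. In total splenocytes 55 members passed and none was called (edgeR, 2 at an unadjusted p below 0.05, none by DESeq2, 0.172% of 12784 genes called). With the block 1 was called, higher in cKO, against 17.1% of all genes called and 8.81% called higher. Members named from these level tests fall outside the rule for naming and were chosen after their values were seen.

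In YFP+ pre-GCB-like cells 44 members passed and 7 were called, all lower in cKO libraries, where 10.1% of 12840 genes were called in either direction and 5.5% lower. These were Igkv16-104, Igkv15-103, Igkv19-93, Igkv4-59, Igkv12-44, Igkv12-41 and Igkv6-17. Of these, Igkv15-103 and Igkv4-59 lay below the filter on low counts in the cKO libraries. Igkv16-104, Igkv12-44 and Igkv12-41 lay below it in 1 cKO library. All but Igkv19-93 and Igkv6-17 thus passed the filter only through the control libraries, where they were high. Their calls only describe that contrast. Igkv15-103 had 16 and 6 UMIs in control and 10 and 11 in cKO libraries, 3.66 and 1.95 against 0.310 and 0.282 CPM (log2 fold change −3.18 ± 0.55 (SE), adjusted p = 0.00826, edgeR), and its adjusted p was 0.0729 without cKO batch 1, 0.0576 without control batch 1 and 0.126 without cKO batch 2. Igkv12-44 had 20 and 41 against 14 and 61 UMIs, 4.58 and 13.4 against 0.434 and 1.56 CPM (−3.004 ± 0.67, adjusted p = 0.0243, edgeR), and led 1 and 4 control and 1 and 8 cKO cells. All of the 7 but Igkv12-44 lost their call in at least 1 fit without a library. Under the other alternatives, Igkv12-41, Igkv4-59 and Igkv6-17 each lost it in 2 and Igkv16-104 and Igkv19-93 in 1. With the block 14 members were called, all lower, against 28.5% of all genes called and 14.2% called lower. The count was lower with doublet-like cells left out and without cKO batch 1, and higher without either control library. The share over all genes is not given for these fits.

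In YFP+ GCB-like cells 53 members passed and none was called by edgeR, where 1.11% of 12132 genes were called. DESeq2 called more, and the share of all genes called by that tool is not given. With the block 15 were called, 14 of them lower and 1 higher, against 7.09% of all genes called, 4.29% lower and 2.79% higher. Igkv1-135 had a log2 fold change of 1.65 ± 0.51 (SE) and an adjusted p of 0.247. Leaving out a library raised the count, least without cKO batch 1 and most without cKO batch 2. The share over all genes is not given for these fits.

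In YFP+ PC-like cells 76 members passed and 9 were called, 4 higher and 5 lower in cKO libraries, where 0.919% of 11529 genes were called, 0.729% higher and 0.191% lower. Igkv1-110 stood at 89.1 and 99.3 CPM in control and 214 and 274 in cKO libraries (log2 fold change 1.41 ± 0.30 (SE), adjusted p = 0.0486, edgeR). This call was lost without any one of 3 of the 4 libraries (adjusted p = 0.0505 without cKO batch 1, 0.157 without control batch 1 and 0.541 without cKO batch 2), with doublet-like cells left out (0.1196) and at the finer clustering (0.0545). Igkv4-72 (1.54), Igkv3-12 (1.81) and Igkv3-4 (1.58) were the others that rose. When a library was left out, their log2 fold changes ran from 1.45 to 1.63, 1.43 to 2.11 and 1.29 to 1.82. Each lost its call in some of these fits. Igkv6-20 stood at 20.1 and 25.2 against 0.382 and 1.18 CPM (−4.83 ± 0.50, adjusted p = 0.000389, edgeR), and it led 4 and 7 control and no cKO cells. Igkv15-103 (−5.68), Igkv8-24 (−5.41) and Igkv13-84 (−2.81) also fell. The call of Igkv13-84 was lost in some fits without a library and under 1 other alternative. Igkv4-57-1 had 143 and 99 UMIs in control and none in cKO libraries, at least 10.8-fold lower over the group against the limit that 3 UMIs set. Each of these members led at most 17 PC-like cells in a control library other than Igkv1-110, with 23 and 30, so that few cells set each level. The 5 lower ones passed the filter on low counts only through the control libraries, where they were high. Their calls only describe that contrast. With the block 22 members were called, 6 higher and 16 lower, against 3.07% of all genes called, 1.9% higher and 1.17% lower. The count was higher without cKO batch 1 and without cKO batch 2, fits for which the share over all genes is not given.

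The other genes of the kappa chain pathway were read as a list of 28 that held the light chain constant and lambda V genes, the Oct and Ets family factors of the light chain enhancers, the recombinase and the surrogate light chain. Between 21 and 23 of them passed the filter in each class. None was called by edgeR in naive cells of either sort, where 0.172% (total) and 0.693% (YFP+) of all genes were called. The calls given next stand beside 10.1% of all genes called in pre-GCB-like, 1.11% in GCB-like and 0.919% in PC-like cells. In YFP+ pre-GCB-like cells Pou2f2, which encodes Oct-2, fell by 0.80 on the log2 scale (adjusted p = 0.0264, edgeR). By the same edgeR test Iglv1 fell by 1.59 on the log2 scale in GCB-like cells (adjusted p = 0.0283) and Iglv2 by 2.43 in PC-like cells (adjusted p = 0.0134), both lambda V genes.

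Light chains known from B1 cells, the innate-like subset that makes natural antibody, were rare. Igkv14-126 led 10 of 354 called B1-like cells (2.82%) and 12 of 3049 naive ones (0.394%), Igkv4-91 led 4 and 4, and Igkv7-33 led none of either. Igkv4-91 led 31 of 1998 PC-like cells (1.55%).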

How the data were processed

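Single-cell 3′ libraries (SeekOne DD) of spleen cells were analysed as the authors deposited them, as counts of UMIs per gene and cell for each of 8 libraries, whose values are not normalized; the submitters' processing notes name GRCm38 and mm10, with aligner and gene annotation not given in the sources used here. Barcodes with at least 201 UMIs, at least 101 genes and at most 10% mitochondrial UMIs were kept. Cells were clustered (Leiden, igraph 0.11.9, 2000 variable genes, 30 components, 20 neighbours, resolution 1) with immunoglobulin, T cell receptor, ribosomal and mitochondrial genes left out, and named from marker lists; some naming thresholds were set after the clusters were seen and before any Igkv value was. No deposited cell annotation was used. Doublet-like cells, the 5% with the highest scores, were kept and left out as an alternative. Members, gene lists and tests were chosen with earlier results of these data known.

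Cells led per V gene were tested over Igkv and Ighv genes leading at least 10 cells, with the called cells as offset, and UMIs summed per class and library over all genes, by edgeR 4.0.16 (quasi-likelihood, Benjamini-Hochberg adjustment, 0.05), with DESeq2 1.42.0 as an alternative (R 4.3.3, Python 3.11.15). Named genes were the 10 most used in naive cells and the 3 leaders of each library. The tests were tried on simulated data. In naive cells of total splenocytes the usage test recovered 6 of 15 genes changed 4-fold, so a usage test without a call can miss such changes. Usage tests of classes with fewer called cells were not simulated. The labels give a batch number that pairs libraries across groups: deviations of same-numbered libraries correlated at 0.595 and 0.475 in naive cells (total and YFP+), 0.246 in pre-GCB-like, 0.285 in GCB-like and 0.261 in PC-like cells. Alternatives are given in the closing section. The result of 1 gene of the pathway list is not reported here.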

Additional observations from a re-analysis of the deposited data

Results flagged for a closer look

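The effective number of leading Igkv genes in the YFP+ sort was higher in cKO than in control naive B-like cells by 6.04, and lower in cKO than in control GCB-like cells by a difference of −11.99. In both classes the 2 cKO libraries lay on one side of the 2 control libraries, in opposite directions, which is why they are given here. The difference between the classes was not tested. The naive groups overlapped once cells were thinned to 3000 UMIs. The GCB-like groups overlapped without Igkv1-117 and Igkv1-110 (29.7 and 25.6 in control against 3.59 and 35.7 in cKO) and in the genes expected in 50 called cells (25.7 and 24.4 against 14.4 and 25.3), and 1 GCB-like library, cKO batch 1, was led by Igkv1-135 in 38.6% of its called cells.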

How the results depend on the processing

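Counts of called Igkv genes moved with the filter, the tool, the block and the libraries included. The share of all genes called is not given for the alternative fits in this paragraph. Their counts describe how the calls moved and are not results about the Igkv genes. In YFP+ naive B-like cells, 1 V gene passed the usage test at clustering resolution 1.5, and the UMI test called 3 with DESeq2, 8 with no filter on low counts and 2 to 5 when a library was left out, against 1. In YFP+ pre-GCB-like cells it called 19 with no filter, 4 with doublet-like cells left out and 2 to 13 without a library, against 7. In YFP+ GCB-like cells it called 1 with DESeq2, 15 with no filter and 1 to 17 without a library, against 0; in PC-like cells leaving out a library gave 9 to 37, against 9. The usage test in GCB-like cells gave 0 to 1 calls without a library, 1 of them without cKO batch 2; Igkv1-135 there ran from −0.42 without cKO batch 1 to 3.11 without cKO batch 2 on the log2 scale. A group left with 1 library was assumed to vary like the others. The cause of these shifts was not tested.

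With the batch as a replicate block, pairing libraries of the same batch, the UMI test called 1 Igkv gene in total naive cells, 14 in YFP+ naive, 14 in pre-GCB-like, 15 in GCB-like and 22 in PC-like cells, and the usage tests still called 0. Effective numbers come from no fitted model and had no block; within batches, cKO minus control was 3.63 and 8.45 in YFP+ naive, −13.1 and 6.34 in pre-GCB-like, −17.3 and −6.64 in GCB-like and −7.25 and 2.61 in PC-like cells.

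The difference in effective number, cKO minus control, was −2.58 with 1 UMI and 0.0815 with 5 UMIs in total naive cells, against 2.02; in YFP+ naive cells it was 1.38 with 1 UMI and 1.29 after thinning, against 6.04, and in PC-like cells −6.64 after thinning, against −2.32. Leaving out a library gave 0.356 to 3.69 (total naive), 3.92 to 8.17 (YFP+ naive), −9.69 to 2.97 (pre-GCB-like), −15.9 to −8.09 (GCB-like) and −6.34 to 1.69 (PC-like). Rules that left under 5 testable Igkv genes or under 20 called cells gave no value. At this depth 5.81% to 12.3% of naive cells could be called.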

Other observations

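The pseudogene Igkv2-107, chosen after its values were seen, led 36 of 714 called marginal zone B-like cells (5.04%, 95% exact binomial interval 3.56 to 6.91%, counting error only), in 7 of 8 libraries. It led 13 of 3049 naive B-like cells (0.426%), 8 of 354 B1-like cells (2.26%), and none of 998 GCB-like or 1998 PC-like cells. The highest share was 18.9%, in the YFP+ cKO library of batch 1, which had only 37 called marginal zone B-like cells.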
